A study of Saccharomyces cerevisiae with 18 samples.

Results

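The transcripts described here are those of 9 yeast genes of glycine cleavage, single carbon transfer on folate and folate synthesis, out of 5698 *S. cerevisiae* genes measured. They were taken by name, *GCV1*, *GCV2*, *GCV3*, *SHM1*, *SHM2*, *MTD1*, *ADE3*, *MIS1* and *FOL1*. The rule itself uses no measured value, but the names were chosen with earlier results of these data known. All 9 were found in the deposited annotation, 8 by symbol and 1, *GCV3*, by its locus tag YAL044C. Each had a probe set that was not shared with another gene.

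Gene expression was recorded on 12 Affymetrix Yeast Genome 2.0 arrays in 4 groups of 3 biological replicates. The groups were W303-Δ*sky1* with 600 µM cisplatin for 4 h in darkness, W303-Δ*sky1* with the DMSO vehicle only (untreated), W303 with the same cisplatin treatment, and W303 with the vehicle only. W303-Δ*sky1* lacks the gene of the kinase Sky1. Both strains grew in complete synthetic medium and share the W303 background, which is *MATa* and carries mutant alleles of *ADE2* (*ade2-1*), *CAN1*, *HIS3*, *LEU2*, *TRP1* and *URA3*. *ADE2* encodes an enzyme of purine synthesis, so both strains depend on adenine from the medium. Whether W303-Δ*sky1* was 1 clone was not given in the sources used here.

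Folate in the cell carries single carbons between amino acids and nucleotides. Serine hydroxymethyltransferase moves a carbon from serine to tetrahydrofolate and releases glycine, and the glycine cleavage complex of the mitochondrion splits glycine and passes a carbon to tetrahydrofolate. The loaded folates are interconverted by dehydrogenases and a synthase, and then feed purine rings, thymidylate and the methyl group of methionine. In *S. cerevisiae* most of these steps exist in the mitochondrion and in the cytosol, and the *GCV* genes are known to respond to glycine.

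The values are log2 signals after RMA, a method that corrects, normalizes and summarizes array probes, and 1 unit is a 2-fold difference. The authors ran RMA separately for each pair of groups compared (3 runs of 6 arrays), and every comparison was tested inside its own run. A differentially expressed gene (DEG) had to differ by 1.6-fold or more (0.68 log2 units), with *P* below 0.01 in limma and an adjusted *P* below 0.05 (Benjamini-Hochberg, over all 5698 genes). "Adjusted *P*" has this meaning throughout. Signals of different probe sets are on no common scale, so levels are compared between arrays and not between genes.

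The *SKY1* signal followed the strain labels, with 0.54 to 1.43 on the 6 W303-Δ*sky1* arrays and 7.98 to 8.18 on the W303 arrays. Probe sets for the fission yeast *S. pombe*, taken as background, had a 95th percentile of 1.24 to 1.35. The lowest signal of any of the 9 genes on any array was 5.33, so that all were measured above background in every sample. Across genes, r between replicates was 0.992 to 0.998. From the signals alone, a change in transcript level per cell and a change in which cells survive the drug cannot be told apart. The paper reports that most cells survived this treatment, with higher survival in W303-Δ*sky1*. How far survival bears on the signals was not tested.

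The first comparison asked how W303 cells respond to cisplatin. Of the 9 genes, 6 were upregulated DEGs and 0 were downregulated, while 3.11% of all genes were DEGs, 1.58% up and 1.53% down. The DEGs were the subunit genes specific to glycine cleavage, *GCV1*, *GCV2* and *GCV3*, the cytosolic hydroxymethyltransferase gene *SHM2*, the dehydrogenase gene *MTD1* and the folate synthesis gene *FOL1*, with increases of 1.91- to 2.86-fold. *SHM1* and *MIS1*, which encode mitochondrial enzymes as the *GCV* genes do, were not among them, and neither was *ADE3*. The median log2 fold change was 1.06 for the 9 genes and -0.0022 for all genes. Several of these genes were named by the study from the same arrays, so the count describes the data and is no independent evidence of direction.

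*GCV1*, which encodes the T subunit (aminomethyltransferase) of the glycine cleavage complex, had log2 signals of 9.78, 9.72 and 9.66 in cisplatin-treated W303, against 8.06, 8.39 and 8.16 in untreated W303. Every treated culture lay more than a log2 unit above every untreated one. The log2 fold change was 1.52 ± 0.09 (SE, n = 3 each; limma, adjusted *P* = 3.45e-05), which was the 30th largest increase of the array.

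*GCV2*, the gene of the P subunit (glycine decarboxylase), had 10.27, 10.24 and 10.27 in treated W303 and 8.52, 9.15 and 8.98 in untreated W303. The treated cultures were nearly equal and the untreated cultures were spread, with an SD of 0.33. The log2 fold change was 1.38 ± 0.15 (SE, n = 3 each; limma, adjusted *P* = 0.00061). It was 1.19 without untreated replicate 1, the lowest array, and remained a DEG.

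*GCV3*, the gene of the H subunit that carries the lipoyl arm, had 9.78, 9.79 and 9.76 in treated W303 against 8.66, 8.79 and 8.66 in untreated W303. Its log2 fold change was 1.07 ± 0.06 (SE, n = 3 each; limma, adjusted *P* = 2.32e-05). All subunit genes that belong to this complex alone were thus at least 2.10-fold higher with the drug, with no overlap of the groups. *LPD1*, the gene of the dihydrolipoamide dehydrogenase that the complex shares with the pyruvate and 2-oxoglutarate dehydrogenases, had 9.01 ± 0.07 in treated W303 and 9.16 ± 0.03 in untreated W303 (SD, n = 3 each), a difference of -0.14 that did not pass (limma, adjusted *P* = 0.105).

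The serine hydroxymethyltransferase genes differed in their response. *SHM2*, of the cytosolic enzyme, had 10.86, 10.75 and 10.79 in treated W303, against 9.62, 9.80 and 9.68 in untreated W303. Its log2 fold change was 1.10 ± 0.07 (SE, n = 3 each; limma, adjusted *P* = 3.63e-05). *SHM1*, of the mitochondrial enzyme, had 9.47, 9.47 and 9.56 in treated W303 and 9.50, 9.40 and 9.54 in untreated W303. These groups overlapped, and the difference of 0.02 had a 95% confidence interval of -0.12 to 0.16, below the interval of *SHM2* (0.95 to 1.25). Taken as a ratio on each array, *SHM2* over *SHM1* was higher by 1.08 ± 0.10 log2 units (SE) in treated W303, with no overlap. An exact permutation test of this ratio, with the arrays taken as unpaired, gave *P* = 0.1 (two-sided). This is the smallest value that such a test of 3 against 3 arrays allows. After adjustment over the 6 ratio tests made, it was 0.15.

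Among the genes that interconvert loaded folates, *MTD1*, of the cytosolic NAD-dependent methylenetetrahydrofolate dehydrogenase, had 7.35, 7.43 and 7.41 in treated W303 against 6.19, 6.42 and 6.39 in untreated W303. Its log2 fold change was 1.06 ± 0.07 (SE, n = 3 each; limma, adjusted *P* = 9.41e-05). *ADE3* encodes the cytosolic trifunctional C1-tetrahydrofolate synthase, which also makes the formyl donor of purine synthesis. It had 11.19, 11.09 and 11.04 in treated W303 and 10.88, 10.76 and 10.79 in untreated W303. The groups did not overlap, but the log2 fold change of 0.30 ± 0.06 (SE; limma, adjusted *P* = 0.0118) was only 1.23-fold.

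*MIS1*, the gene of the mitochondrial counterpart of Ade3, had 7.09, 7.05 and 6.98 in treated W303 and 7.30, 7.25 and 7.23 in untreated W303. Its difference was -0.22 ± 0.06 (SE; limma, adjusted *P* = 0.0224), opposite in sign to that of *ADE3* and below 1.6-fold. Under alternatives, this adjusted *P* was 0.0885 over all probe sets of the array, *S. pombe* included, 0.0589 without untreated replicate 3, 0.075 without treated replicate 2 and 0.0942 without treated replicate 3. The same treated arrays gave *MIS1* signals lower by 0.23 to 0.29 in the run that held the treated strains, a shift from normalization as large as the difference itself. The part of such a shift that all arrays of a run share does not enter a difference within that run. The ratio of *ADE3* over *MIS1* was higher by 0.52 ± 0.03 log2 units (SE) in treated W303 (exact permutation *P* = 0.1, the smallest possible, and 0.15 adjusted).

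*FOL1* encodes an enzyme with several successive activities in the making of the pterin part of folate and its joining to *p*-aminobenzoate. It had 6.83, 6.59 and 6.51 in treated W303 against 5.80, 5.67 and 5.64 in untreated W303. The log2 fold change was 0.94 ± 0.09 (SE, n = 3 each; limma, adjusted *P* = 0.000451). In all, 7 genes were higher and 1 lower at an adjusted *P* under 0.05, shares that all genes reached in 13.2% and 15.3% of cases. The groups did not overlap for the same number in each direction, against 22.6% and 23.9% of all genes.

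**Figure D1:**
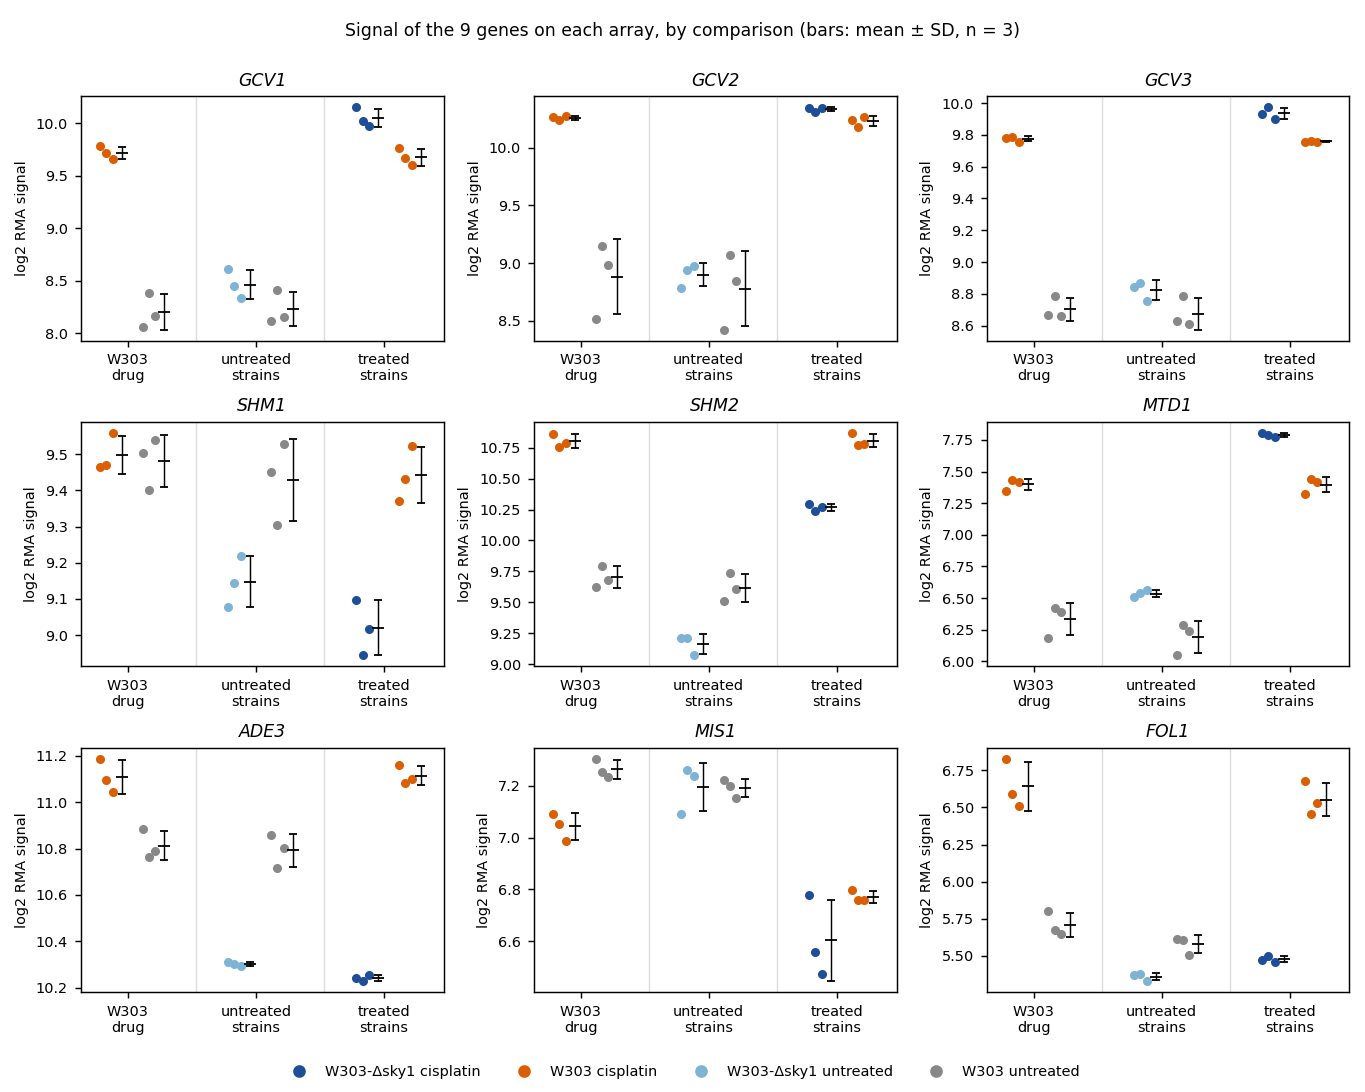
Log2 RMA signal (y axis) of the 9 genes on every array, 1 panel a gene, with each comparison in its own block (x axis) and in its own normalization run. Points are single arrays, black marks the mean ± SD of 3. In the W303 cisplatin block the treated points lie above the untreated points for 7 genes, overlap for *SHM1* and lie below for *MIS1*.

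The second comparison asked what the loss of Sky1 changes without the drug. Of the 9 genes, 0 were DEGs (limma; 5 at an unadjusted *P* under 0.05). Among all genes 10.2% were, 4.93% up and 5.28% down, so a count of 0 among 9 is near the background. At an adjusted *P* under 0.05 without the fold threshold, *MTD1* was higher and *ADE3*, *SHM2*, *SHM1* and *FOL1* were lower in W303-Δ*sky1*. Such differences were common, as 24.9% of all genes were higher and 27.4% lower by this rule. The median log2 fold change was 0.00 for the 9 genes and -0.02 for all genes. This comparison uses the same untreated W303 cultures as the first, so their values are set side by side and are not independent.

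*GCV1*, *GCV2* and *GCV3* did not pass, whereas *LPD1* did, with 9.51 ± 0.05 in untreated W303-Δ*sky1* and 9.13 ± 0.05 in untreated W303 (SD, n = 3 each; difference 0.38, limma, adjusted *P* = 0.00154). *GCV1* had 8.61, 8.45 and 8.33 in untreated W303-Δ*sky1* and 8.12, 8.41 and 8.16 in untreated W303, and the groups overlapped. The differences were 0.23 for *GCV1* (limma, adjusted *P* = 0.0915), 0.12 for *GCV2* (adjusted *P* = 0.534) and 0.15 for *GCV3* (adjusted *P* = 0.118). Their 95% confidence intervals ran from -0.01 to 0.47, from -0.23 to 0.47 and from -0.02 to 0.32, so that a difference of 1.6-fold lay outside each of them. The difference of *GCV2* was -0.057 without W303 replicate 1. Without W303 replicate 2, *GCV1* (0.32; limma, adjusted *P* = 0.0201) and *GCV3* (0.21; adjusted *P* = 0.0358) passed at an adjusted *P* under 0.05, as did 7 of the 9 genes.

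*ADE3* had the smallest adjusted *P* of the 9. It had 10.31, 10.30 and 10.29 in untreated W303-Δ*sky1* against 10.86, 10.72 and 10.80 in untreated W303. The difference was -0.49 ± 0.06 (SE, n = 3 each; limma, adjusted *P* = 0.000449), or 0.712-fold, with no overlap. *MIS1* had 7.20 ± 0.09 in W303-Δ*sky1* and 7.19 ± 0.04 in W303 (SD, n = 3 each), with overlapping groups and a confidence interval from -0.15 to 0.16. The ratio of *ADE3* over *MIS1* was lower by -0.49 ± 0.07 log2 units (SE; exact permutation *P* = 0.1, the smallest possible, and 0.15 adjusted).

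*SHM2* had 9.21, 9.21 and 9.07 in untreated W303-Δ*sky1* and 9.51, 9.74 and 9.61 in untreated W303, a difference of -0.45 ± 0.08 (SE; limma, adjusted *P* = 0.00208). *SHM1* had 9.08, 9.14 and 9.22 in W303-Δ*sky1* and 9.45, 9.31 and 9.53 in W303, a difference of -0.28 ± 0.08 (SE; limma, adjusted *P* = 0.0169). Here both isozyme genes lay lower in the mutant without overlap, and their ratio differed by only -0.17 ± 0.15 (SE; exact permutation *P* = 0.5, also 0.5 adjusted). *FOL1* had 5.37, 5.38 and 5.33 in W303-Δ*sky1* against 5.61, 5.61 and 5.51 in W303, a difference of -0.22 (limma, adjusted *P* = 0.0176). When all probe sets of the array were tested, *S. pombe* included, the adjusted *P* (limma) was 0.0558 for *SHM1* and 0.0736 for *FOL1*. For *SHM1* it was 0.0697 without W303 replicate 3 and 0.0613 without W303-Δ*sky1* replicate 1, and for *FOL1* 0.0586 without W303-Δ*sky1* replicate 3.

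*MTD1* was the only one of the 9 that was higher in the mutant by this rule. It had 6.51, 6.54 and 6.56 in untreated W303-Δ*sky1* and 6.05, 6.29 and 6.24 in untreated W303, a difference of 0.34 ± 0.08 (SE, n = 3 each; limma, adjusted *P* = 0.0064). In all, the groups were apart without overlap for 1 gene upwards and 4 downwards, which 29.5% and 32.5% of all genes also were.

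**Figure D2:**
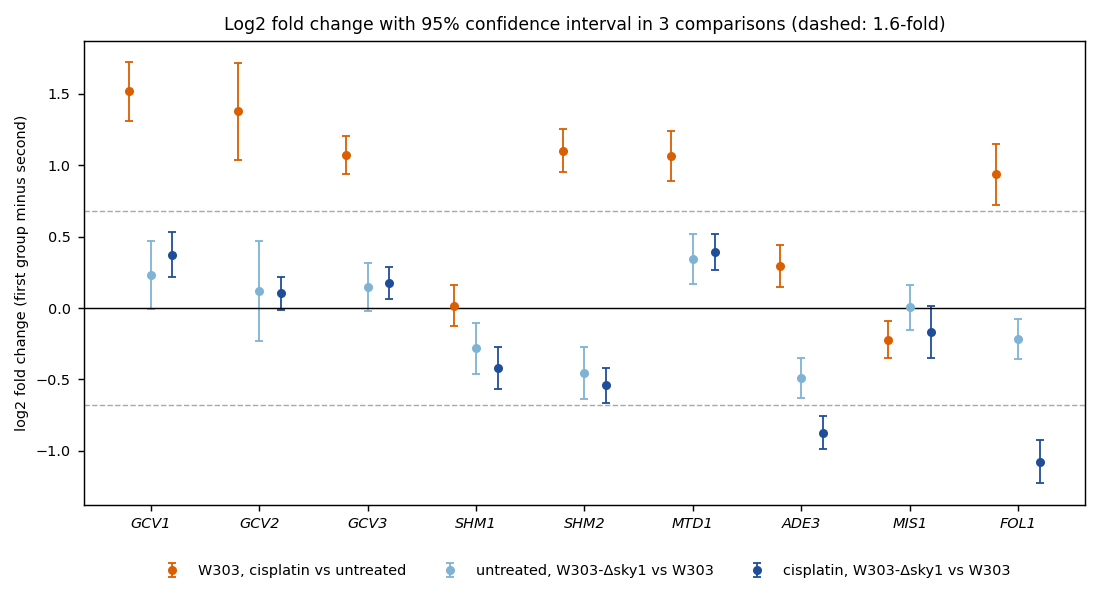
Log2 fold change (y axis) of the 9 genes (x axis) in the 3 comparisons. Points are the limma estimate, bars its 95% confidence interval, and dashed horizontal lines mark 1.6-fold. With cisplatin in W303, 6 genes lie past the line. Between the untreated strains 0 do, and between the treated strains *ADE3* and *FOL1* lie past it on the lower side.

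The third comparison set the strains against each other under cisplatin. Of the 9 genes, 2 were DEGs, *ADE3* and *FOL1*, both lower in W303-Δ*sky1*, and 0 were higher. Among all genes 19.9% were DEGs, 8.78% up and 11.2% down. *GCV1*, *GCV3* and *MTD1* were higher and *SHM1* and *SHM2* lower at an adjusted *P* under 0.05, all by less than 1.6-fold. Of all genes, 32.8% were higher and 37.8% lower by that rule, so the numbers of 3 and 4 among the 9 genes are near the background. The median log2 fold change was -0.17 for the 9 genes and -0.03 for all genes. The treated W303 cultures are those of the first comparison, while the comparison of the untreated strains and that of the treated strains share no arrays.

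*FOL1* had 5.47, 5.50 and 5.46 in cisplatin-treated W303-Δ*sky1* against 6.68, 6.45 and 6.53 in cisplatin-treated W303. The log2 fold change was -1.08 ± 0.07 (SE, n = 3 each; limma, adjusted *P* = 1.94e-06), or 0.474-fold. In the other runs, normalized separately, untreated W303-Δ*sky1* had 5.33 to 5.38 and untreated W303 had 5.51 to 5.80. The signals of the treated mutant lay between these ranges.

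*ADE3* had 10.24, 10.23 and 10.26 in treated W303-Δ*sky1* and 11.16, 11.08 and 11.10 in treated W303. Its log2 fold change was -0.87 ± 0.05 (SE, n = 3 each; limma, adjusted *P* = 1.48e-06), or 0.546-fold. *MIS1* had 6.78, 6.56 and 6.47 in treated W303-Δ*sky1* and 6.80, 6.76 and 6.76 in treated W303. These groups overlapped, and the difference of -0.17 did not pass (limma, adjusted *P* = 0.0863), although it did with the replicate number as a block (adjusted *P* = 0.0413) and without W303-Δ*sky1* replicate 1 (-0.25, adjusted *P* = 0.00508). The ratio of *ADE3* over *MIS1* was lower by -0.70 ± 0.09 log2 units (SE; exact permutation *P* = 0.1, the smallest possible, and 0.15 adjusted).

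*SHM2* had 10.29, 10.24 and 10.27 in treated W303-Δ*sky1* against 10.87, 10.78 and 10.78 in treated W303, a difference of -0.54 ± 0.05 (SE; limma, adjusted *P* = 2.79e-05). *SHM1* had 9.10, 8.95 and 9.02 in W303-Δ*sky1* and 9.37, 9.43 and 9.52 in W303, a difference of -0.42 ± 0.06 (SE; limma, adjusted *P* = 0.000378). Both isozyme genes were again lower in the mutant without overlap. Their ratio differed by -0.12 ± 0.08 (SE; exact permutation *P* = 0.2, and 0.24 adjusted).

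*GCV1* had 10.15, 10.03 and 9.98 in treated W303-Δ*sky1* and 9.76, 9.67 and 9.60 in treated W303, a difference of 0.37 ± 0.07 (SE, n = 3 each; limma, adjusted *P* = 0.00106). *GCV3* had 9.93, 9.97 and 9.90 in W303-Δ*sky1* and 9.76 on each W303 array, a difference of 0.18 (limma, adjusted *P* = 0.0118), which became 0.0527 when all probe sets of the array were tested. *GCV2* had 10.34, 10.31 and 10.34 in W303-Δ*sky1* and 10.24, 10.18 and 10.27 in W303, apart by 0.10 without overlap but not past the test (limma, adjusted *P* = 0.106). *MTD1* had 7.80, 7.79 and 7.77 in W303-Δ*sky1* and 7.33, 7.44 and 7.42 in W303, a difference of 0.39 ± 0.05 (SE; limma, adjusted *P* = 0.000204). *LPD1* had 9.38 ± 0.05 in W303-Δ*sky1* and 8.94 ± 0.09 in W303 (SD, n = 3 each), a difference of 0.44 that passed at less than 1.6-fold (limma, adjusted *P* = 0.000246). Thus the *GCV* genes and *MTD1* were at least as high in the treated mutant as in treated W303 on the array, and *SHM1*, *SHM2*, *ADE3* and *FOL1* were lower. Without overlap, 4 genes were higher and 4 lower, as were 34.7% and 39.2% of all genes.

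No deposited table holds both W303-Δ*sky1* groups, so the response of the mutant to cisplatin was not tested. Its size can be set out by adding the strain difference under cisplatin to the response of W303 and taking off the strain difference without the drug. This sum was 1.66 log2 units for *GCV1*, 1.36 for *GCV2*, 1.10 for *GCV3*, 1.11 for *MTD1* and 1.01 for *SHM2*, where W303 had 1.52, 1.38, 1.07, 1.06 and 1.10. For *FOL1* it was 0.08 in W303-Δ*sky1* and 0.94 in W303, and for *ADE3* -0.09 and 0.30. The 9 genes therefore fell apart by this description. The strain difference was nearly alike with and without the drug for *GCV2*, *GCV3*, *MTD1* and *SHM2*, where it moved by -0.09 to 0.05, while it moved by -0.86 for *FOL1* and by -0.38 for *ADE3*. For *GCV1*, *SHM1* and *MIS1* it moved by 0.14, -0.14 and -0.17.

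The error of such sums includes the separate normalization. The same W303 array had member signals that differed between runs by a median of 0.03 (at most 0.29, *MIS1*) with cisplatin and 0.07 (at most 0.19, *FOL1*) without it. A shift shared by all arrays of a run drops out of the differences that are summed, so these shifts are only a rough guide to the error. The movements of *FOL1* and *ADE3* were larger than the largest shift, and those of all the other members were not. None of them was tested.

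**Figure D3:**
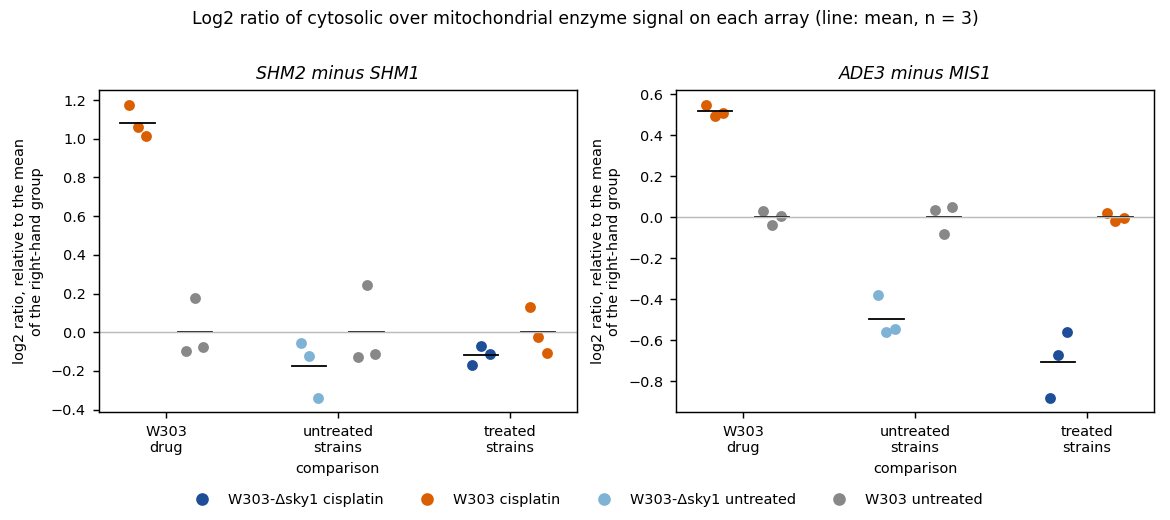
Log2 ratio of *SHM2* over *SHM1* and of *ADE3* over *MIS1* on each array (y axis), relative to the mean of the W303 arrays (of the untreated arrays, within W303) in the same comparison (x axis). Points are single arrays and lines are group means. The *SHM2* ratio is apart only with cisplatin in W303, by 1.08, and the *ADE3* ratio is higher there by 0.52 and lower in W303-Δ*sky1* in both strain comparisons.

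Around the 9 genes, 59 probe sets of neighbouring steps were counted in lists written from general knowledge of the pathways. With cisplatin in W303, 6 of them were upregulated DEGs and 0 downregulated, with a median of 0.08, while 1.58% and 1.53% of all genes were. Between the untreated strains 2 were higher and 2 lower in W303-Δ*sky1*, with a median of 0.00, against 4.93% and 5.28% of all genes. Between the treated strains 3 were higher and 8 lower, with a median of -0.15, against 8.78% and 11.2% of all genes. In both strain comparisons these counts were near or below the background.

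Methyl transfer to homocysteine and the AdoMet cycle had the largest share of DEGs with cisplatin in W303, with 3 of 5 genes up and 0 down. These were *MET6*, of the methionine synthase that takes its methyl group from folate (log2 fold change 1.04), and the AdoMet synthetase genes *SAM1* (1.96) and *SAM2* (0.72). Under cisplatin, 3 of the 5 were lower in W303-Δ*sky1*, namely *SAM1* (-0.89), *SAH1* (-1.31), of the enzyme that removes adenosylhomocysteine, and *SAM2* (-0.68), just past the threshold. Without the drug *MET6* was lower in W303-Δ*sky1* by -0.70 (limma, adjusted *P* = 0.000185). Under cisplatin it was lower by -0.63 (limma, adjusted *P* = 1.61e-05), just short of the fold threshold. At an adjusted *P* under 0.05 alone, 4 of the 5 genes were lower in W303-Δ*sky1* under cisplatin and 3 without it, and 0 were higher in either. Of all genes, 37.8% and 27.4% were lower by that rule.

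Among the 7 genes of serine and glycine supply, *SER33*, of a 3-phosphoglycerate dehydrogenase that opens serine synthesis, had 9.25 ± 0.02 in treated W303 and 6.72 ± 0.05 in untreated W303 (SD, n = 3 each). This log2 fold change of 2.53 (limma, adjusted *P* = 8.76e-08) was larger than that of any of the 9 genes, while its paralog *SER3* changed by -0.02 (adjusted *P* = 0.765). Between the treated strains *SER33* (-1.11) and *SER3* (-0.89) were both lower in W303-Δ*sky1*.

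Genes at the ends of this supply differed between the strains with and without the drug. *AGX1*, of the aminotransferase that makes glycine from glyoxylate, had 7.30 ± 0.09 in untreated W303-Δ*sky1* and 5.47 ± 0.25 in untreated W303 (SD, n = 3 each; log2 fold change 1.82, limma, adjusted *P* = 4.65e-05). Under cisplatin it had 7.77 ± 0.07 in W303-Δ*sky1* and 5.54 ± 0.06 in W303 (2.23, adjusted *P* = 7.27e-08). *CHA1*, of the deaminase that breaks down serine and threonine, was lower in W303-Δ*sky1* by -1.46 without the drug (adjusted *P* = 0.000125) and by -2.07 with it (adjusted *P* = 8.16e-08). Neither was a DEG with cisplatin in W303, where *AGX1* changed by -0.01 and *CHA1* by 0.60.

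Of 14 genes of purine synthesis, 2 were upregulated DEGs with cisplatin in W303 and 0 downregulated, and the median was -0.01. The DEGs were *ADE17* (1.32; limma, adjusted *P* = 1.25e-05), whose enzyme adds a formyl group from folate, and *ADE1* (0.71). The paralog of *ADE17*, *ADE16*, changed by -0.06 (limma, adjusted *P* = 0.421). At an adjusted *P* under 0.05 alone, 5 of the 14 were higher and 3 lower, against 13.2% and 15.3% of all genes. The lower ones were *IMD3* (-0.63), *GUA1* (-0.58) and *IMD4* (-0.40). *ADE8*, of the other formyl transfer of the purine ring, was higher in W303-Δ*sky1* under cisplatin (0.70) and *IMD4*, of an IMP dehydrogenase, was lower (-0.77). Without the drug *IMD2* was higher in W303-Δ*sky1* (0.74; limma, adjusted *P* = 0.0018). The array marks the probe set of *IMD2* as one that may also bind similar sequences, and this was not tested.

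Among 12 further genes of folate synthesis and use, 0 were DEGs with cisplatin in W303 (limma; 1 at an adjusted *P* under 0.05, *MET13*, 0.41). *FOL1* was thus the only folate synthesis gene of those listed that was called there, as *FOL2*, *FOL3* and *DFR1* changed by -0.05, 0.18 and -0.04. Between the treated strains *MET13*, of a methylenetetrahydrofolate reductase, was higher in W303-Δ*sky1* (0.70) and *ABZ1*, which acts in *p*-aminobenzoate synthesis, was lower (-0.75). Of the 12, 7 were lower and 3 higher at an adjusted *P* under 0.05 in that comparison, with a median of -0.25, as were 37.8% and 32.8% of all genes.

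The remaining lists held 0 DEGs in the 3 comparisons (limma). Their largest differences were *PDB1* of pyruvate dehydrogenase (0.59), *PHO2* among the regulators *BAS1*, *PHO2* and *GCN4* (-0.50) and *LIP5* of lipoate synthesis (-0.45), each between the treated strains. For histidine synthesis it was *HIS6* (-0.68, just short of the fold threshold) and for formate the probe set shared by *FDH1* and *FDH2* (-0.62), both between the untreated strains.

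**Figure D4:**
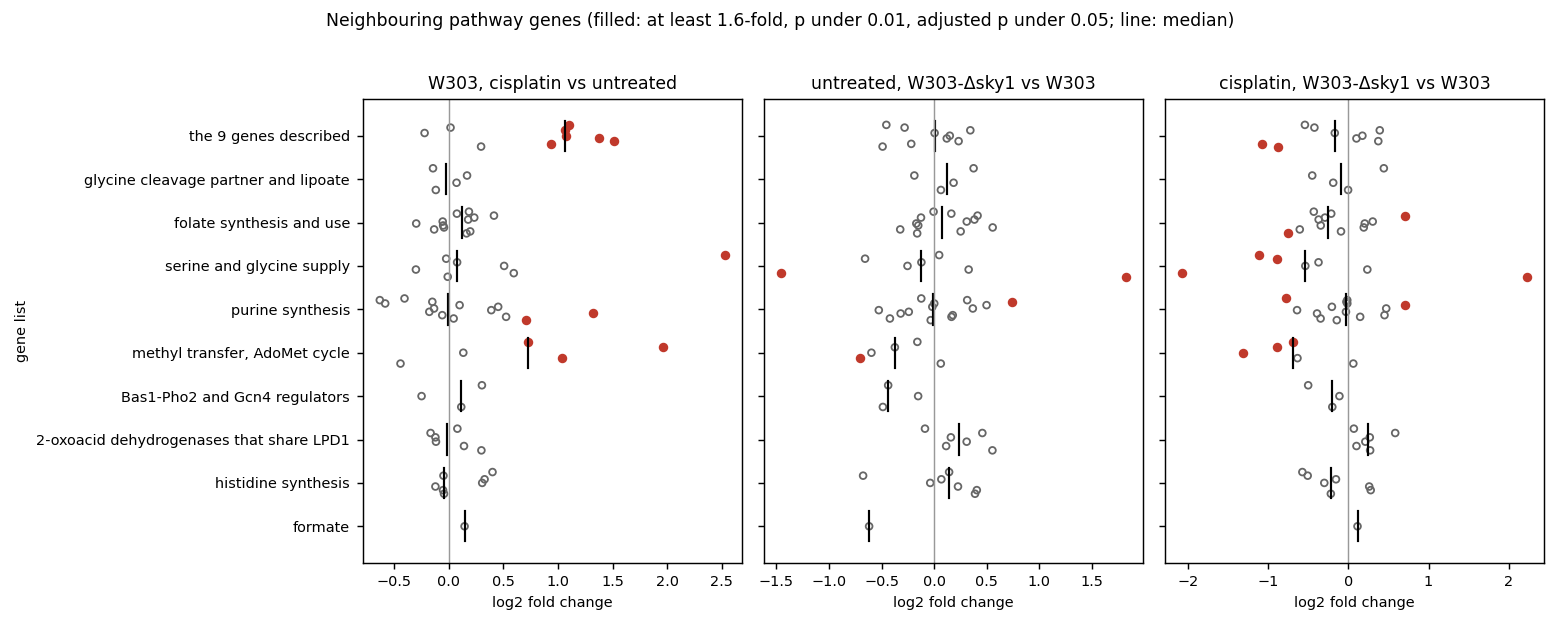
Log2 fold change (x axis, with its own range in each panel) of every gene in the 9 members and the surrounding lists (rows), 1 panel a comparison. Filled points are DEGs and the short line is the list's median, which with cisplatin in W303 is 1.06 for the 9 genes and 0.72 for methyl transfer and the AdoMet cycle.

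The likeness of other genes to the *GCV* genes was measured as the root mean square difference from the mean of *GCV1*, *GCV2* and *GCV3*, after centring within each run, over 18 columns from 12 arrays. *MTD1* was at 0.118, closer than any of the 5 nearest genes outside the group, and *SHM2* was at 0.294. *FOL1* at 0.423 and *ADE3* at 0.487 were about as far as the median of all genes, 0.446. The nearest outside genes were *PDC6* (0.145), of a minor pyruvate decarboxylase, *ZWF1* (0.192), of glucose-6-phosphate dehydrogenase, *LEE1* (0.199), *AAD6* (0.210) and YHR112C (0.210). For *PDC6* the log2 fold change was 1.42 with cisplatin in W303, and 0.17 and 0.05 between the untreated and the treated strains. The columns share arrays and normalization runs, so these distances are a description only.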

How the data were processed

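Total RNA of 12 cultures was hybridized to Affymetrix Yeast Genome 2.0 arrays. The log2 values were deposited by the authors after RMA, in 3 tables of 6 arrays normalized separately. The series lists 18 columns because W303 arrays were used again. Each column was assigned to its sample (0 without one). The tables also hold the authors' limma *P*-values, false discovery rates and group means, which were not used. The labels and the paper give different amounts of RNA for labelling.

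*S. pombe* and unnamed probe sets were left out, and the probe set with the highest mean was kept for each gene, which left 5698 genes. Each table was tested alone with limma 3.58.1 in R 4.3.3 (lmFit, eBayes, Benjamini-Hochberg) at the thresholds of the study. With cisplatin in W303 and between the untreated strains, more genes were called over the whole array than the paper reports. The reason was not tested, and the shares of all genes given here are those of this fit. The script was tested on simulated data. Each group has 3 arrays. Log ratios of paralogs were tested with exact permutation tests (scipy 1.17.1) that took the arrays as unpaired.

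All 9 genes are named in each comparison. Of each pathway list, the genes called in any comparison are named, and otherwise the gene with the largest change, as are the 5 genes closest to the *GCV* mean and the 5 closest to the mean of all 9. *LPD1*, *FOL2*, *FOL3*, *DFR1*, *ADE16*, *IMD3* and *GUA1* were named in addition, after their values were seen. Members and lists were chosen with earlier results of these data known.

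Samples with equal replicate numbers deviated together. For equal numbers r was 0.21 to 0.32 in W303 with and without cisplatin, 0.22 to 0.43 between the untreated strains and 0.29 to 0.44 between the treated strains, and for different numbers at most 0.13. Within W303 the pairing comes from the methods, which divide each culture into control and treated aliquots, and between strains from these correlations alone. A replicate block was therefore an alternative, beside other thresholds, probe sets, normalizations and variance models, and each array left out in turn. Counts at an adjusted *P* under 0.05 alone were added to the alternatives after the data were seen. A search of promoter motifs was not run.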

Additional observations from a re-analysis of the deposited data

How the results depend on the processing

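The DEG counts among the 9 genes were 6 with cisplatin in W303, 0 between the untreated strains and 2 between the treated strains. They were the same with the replicate number as a block (6, 0 and 2), with each array left out in turn (6 to 6, 0 to 0 and 2 to 2), and with the other normalizations, probe sets, filter and variance models. With no fold threshold they were 8, 5 and 7, and at 2-fold they were 5, 0 and 1. Over all genes, 177, 582 and 1136 were called, and 1621, 2978 and 4023 with no fold threshold or 65, 159 and 432 at 2-fold. Leaving out each array gave 171 to 232, 570 to 643 and 1127 to 1146. Counts of the 9 at an adjusted *P* under 0.05 were 8, 5 and 7, with the replicate block 8, 5 and 8 (*MIS1* added), and without single arrays 7 to 8, 4 to 7 and 7 to 8. They were 7, 3 and 6 when all probe sets were tested, where the number of tests rose, and *GCV2* passed between the treated strains after quantile normalization (adjusted *P* = 0.0341). Signs turned only for differences near 0 when an array was left out. With single arrays left out, *SHM1* with cisplatin in W303 ran from -0.023 (without untreated replicate 2) to 0.046, and was -0.013 without treated replicate 3. Between the untreated strains *GCV2* ran from -0.057 (without W303 replicate 1) to 0.27. *MIS1* ran there from -0.028 (without W303-Δ*sky1* replicate 2) to 0.058, with -0.015 without W303 replicate 3 and -0.016 without W303-Δ*sky1* replicate 3. The cause was not tested. Signals of the 9 genes were above background on all arrays. The promoter motifs were not run.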

Other observations

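Taken over all 9 genes, the nearest profiles among other genes belonged to *ADE1*, of an enzyme of purine synthesis, at a root mean square difference of 0.072 from their mean, YHR112C (0.0802), *SNZ1* (0.0886), which acts in vitamin B6 synthesis, *MET28* (0.0895), of a regulator of sulfur amino acid genes, and *SNA3* (0.105). The median of all genes was 0.301. The 9 genes themselves lay at 0.158 (*GCV3*) to 0.301 (*MIS1*) from their mean, farther than each of these. The mean thus averages unlike profiles, and closeness to it is not closeness to any of the 9. Their log2 fold changes with cisplatin in W303 were 0.71 for *ADE1*, 0.94 for YHR112C, 0.59 for *SNZ1*, 0.73 for *MET28* and 0.66 for *SNA3*. Under cisplatin W303-Δ*sky1* differed from W303 by -0.14 for *ADE1*, -0.28 for YHR112C, -0.28 for *SNZ1*, -0.33 for *MET28* and -0.22 for *SNA3*. The columns share arrays, so that these distances carry no test.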
